A study of Saccharomyces cerevisiae with 6 samples.

Results

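The bodies of the long protein-coding genes of budding yeast, Saccharomyces cerevisiae, were examined for anti-FLAG chromatin immunoprecipitation (ChIP-seq) signal in cells without RPD3 and in cells with it. A gene was taken if the R64 gene table gives at least 3000 bp between its start and stop codon, if it lies over 30 kb from a chromosome end, and if it is not on chromosome XII, which carries the ribosomal DNA (rDNA). Of 6002 nuclear protein-coding genes, 527 are that long, and 445 met the whole rule: 47 lie on chromosome XII and 35 near the ends of the other chromosomes. The body is the stretch from 500 bp inside the start codon to 500 bp inside the stop codon. Together the 445 bodies hold 28033 bins of 50 bp, or 11.7% of the bins outside the rDNA. The genes run from 3003 to 12279 bp, with a median of 3765 bp, and 229 of them lie on the plus strand and 216 on the minus strand. No 2 bodies overlap. From general knowledge, since the table does not annotate it, 40 of the 445 are open reading frames of Ty retrotransposons, and the other 405 are ordinary cellular genes.

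The compared groups were 3 samples of the rpd3Δ strain YHy17 and 3 samples of the WT strain OAy1102, all grown in YEPD medium at 23 °C, arrested in G1 by α-factor, a mating pheromone, and precipitated with the anti-FLAG M2 antibody. The labels do not name the FLAG-tagged protein; the series title names Rpd3, the rDNA array, single-copy replication origins and the forkhead protein Fkh1. BAR1, whose product is a protease against the pheromone, gave 0 counts everywhere, in either strain. RPD3 itself had a signal of 0.0740, 0.106 and 0.115 times the mean outside the rDNA in the rpd3Δ samples and 0.894, 0.745 and 0.923 times in the WT samples. Each genotype is represented by 1 strain, and the labels do not say that its samples came from separate cultures. The p-values therefore reflect how far the samples scatter, and that scatter may be technical. Input DNA was not analysed here, and signal is therefore given relative to other parts of the same library.

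Rpd3 is a histone deacetylase that works in more than one complex. In the large complex it is brought to promoters by DNA-binding repressors. In the small complex, Rpd3S, it acts over transcribed gene bodies, where the chromodomain protein Eaf3 reads the methylation that the Set2 enzyme leaves on histone H3 behind RNA polymerase II; the removal of acetyl groups there keeps transcription from starting inside genes, and long genes are the usual place where its loss is noticed. In ChIP-seq, the inside of a coding gene is also the stretch where a protein that binds promoters or origins gives mostly background, although highly transcribed bodies often carry signal in many immunoprecipitations.

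The libraries held 4888453 to 6785491 summed bin counts in rpd3Δ and 3987250 to 5907739 in WT. Of these, 56.0%, 63.99% and 62.0% lay in the rDNA span in the rpd3Δ samples, against 43.3%, 37.1% and 49.7% in the WT samples, so that the groups did not overlap; the part of this difference in the results below was not tested. Outside the rDNA 1856928 to 2749036 counts were left in rpd3Δ and 2004989 to 3713937 in WT. A long body held a median of 418, 423 and 332 counts in the rpd3Δ samples and 406, 546 and 330 in the WT samples, and the lowest count of any body in any sample was 133. All 445 bodies passed the minimum of 10 mean counts.

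Long gene bodies lay below the genome average in both genotypes. Per bin, their summed signal was 0.736, 0.838 and 0.857 times the mean outside the rDNA in the rpd3Δ samples and 0.752, 0.737 and 0.824 times in the WT samples. The groups overlapped: rpd3Δ sample 1 was the lowest of all 6. The means were 0.810 ± 0.0653 in rpd3Δ and 0.771 ± 0.0463 in WT (SD, n = 3 each; two-sided exact permutation p = 0.5, where 3 samples against 3 cannot give less than 0.1). Of the 445 bodies, 387 in rpd3Δ and 392 in WT had a signal under the average. The median body had 0.720 times the average in rpd3Δ and 0.656 times in WT, and the central 90% of bodies ran from 0.491 to 1.32 in rpd3Δ and from 0.471 to 1.39 in WT.

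The sequence on both sides of the bodies carried more signal than the bodies. The 500 bp upstream of the start codons had 1.15 ± 0.0739 times the average in rpd3Δ and 1.21 ± 0.0686 times in WT (SD, n = 3 each). On a log2 scale, body over upstream sequence was -0.74, -0.46 and -0.34 in the rpd3Δ samples and -0.73, -0.77 and -0.46 in the WT samples. All 6 values were negative, and the genotypes overlapped (means of -0.51 ± 0.21 in rpd3Δ and -0.66 ± 0.17 in WT; exact permutation p = 0.4). Averaged over the genes, signal at 225 bp before the start codon was 1.16 in rpd3Δ and 1.22 in WT. At 525 bp inside the gene it had dropped to 0.836 in rpd3Δ and 0.839 in WT, and at 1725 bp inside to 0.749 in rpd3Δ and 0.715 in WT. Past the stop codon there was a second, narrower maximum, of 1.19 in rpd3Δ and 1.12 in WT at 125 bp downstream.

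**Figure D1:**
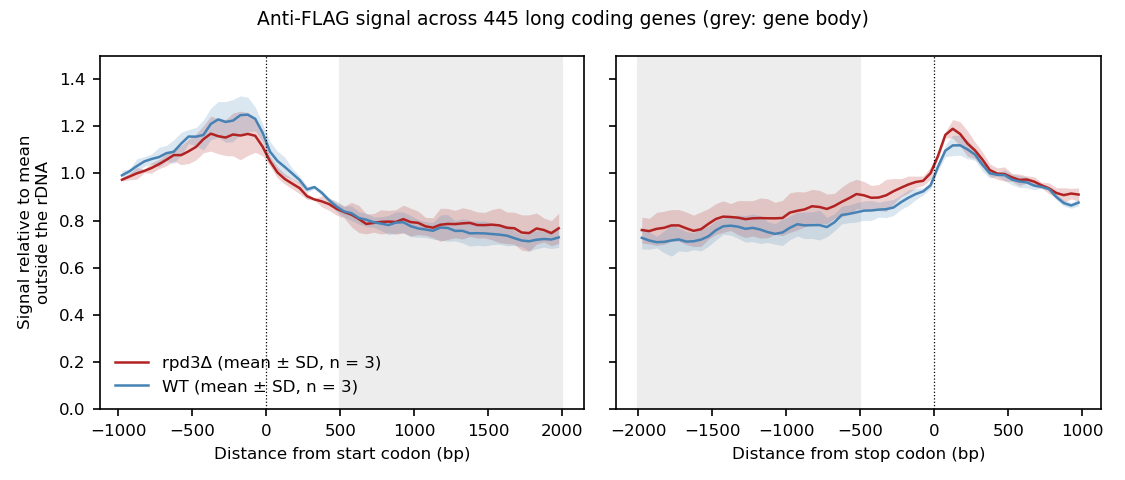
Mean anti-FLAG signal of the 445 long genes, in multiples of the mean outside the rDNA (y axis), by distance in bp from the start codon (left panel) and from the stop codon (right panel); lines are means and bands SD over 3 samples, red for rpd3Δ and blue for WT. Signal is low inside the genes, with 0.749 in rpd3Δ and 0.715 in WT at 1725 bp after the start codon, and high just outside both codons.

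Compared with their own surroundings, taken as the middle of the distribution of bins within 25 kb on either side with the gene itself left out, most bodies were also low. Body over surroundings was above 1 for 106 of the 445 members in rpd3Δ and for 85 in WT, with medians of 0.867 in rpd3Δ and 0.812 in WT. The surroundings themselves had 0.833 ± 0.0361 times the genome average in rpd3Δ and 0.815 ± 0.0249 in WT (SD, n = 3 each; exact permutation p = 0.7). Shorter bodies were alike in level: the 1485 bodies of genes of 1500 to 2999 bp in the same parts of the chromosomes had 0.766 ± 0.0537 in rpd3Δ and 0.725 ± 0.0419 in WT (exact permutation p = 0.3). On the log2 scale all long bodies together exceeded these by 0.08 ± 0.02 in rpd3Δ and by 0.09 ± 0.01 in WT (exact permutation p = 0.6). This excess came with the 40 retrotransposon genes, whose bodies had 1.33 ± 0.0877 in rpd3Δ and 1.40 ± 0.0431 in WT. Without them the long bodies had 0.741 ± 0.0623 in rpd3Δ and 0.686 ± 0.0467 in WT (exact permutation p = 0.2). That is below the shorter bodies in every sample.

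Along the body, signal was lowest in the middle, and the genotypes separated in the balance of the 3′ and 5′ ends. The body was cut into 10 equal segments and each gene divided by its own mean over the 6 samples. The first segment had 1.04 ± 0.0542 in rpd3Δ and 1.04 ± 0.0372 in WT (SD, n = 3 each). The sixth segment had 0.991 ± 0.0834 in rpd3Δ and 0.919 ± 0.0352 in WT. The last segment had 1.12 ± 0.0637 in rpd3Δ and 1.04 ± 0.0399 in WT. No single segment gave a low p: the exact permutation p ran from 0.2 to 1 over the 10 segments. The log2 ratio of rpd3Δ to WT was -0.00058 in the first segment, 0.11 in the sixth, 0.11 in the ninth and 0.10 in the last. It was positive for 220 of 445 genes in the first segment and for 287 in the ninth. In the plot by sample, rpd3Δ sample 1 runs with WT samples 1 and 2 over most of the body, and WT sample 3 lies nearer to the other rpd3Δ samples.

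Because the ends of a body share a library, their ratio needs no scaling between samples. With the body cut into 3 equal parts, the log2 ratio of the last part to the first was 0.05, 0.08 and 0.07 in the rpd3Δ samples and -0.01, -0.02 and 0.01 in the WT samples. Every rpd3Δ sample lay above every WT sample. The means were 0.065 ± 0.017 in rpd3Δ and -0.0045 ± 0.017 in WT, a difference of 0.07 (SD, n = 3 each; exact permutation p = 0.1, the smallest this design allows). The difference was between 0.03 and 0.09 in the alternatives that changed the windows, the members or the weighting, and the lowest, 0.03, came with 1000 bp left out at each end. In the bodies of 1500 to 2999 bp the ratio was 0.05, 0.06 and 0.05 in the rpd3Δ samples and -0.00092, 0.01 and 0.05 in the WT samples, where rpd3Δ sample 1 exceeded WT sample 3 only in the fourth decimal (exact permutation p = 0.1). The excess of long over shorter bodies in this ratio was 0.01 ± 0.01 in rpd3Δ and -0.02 ± 0.01 in WT, again with no overlap (exact permutation p = 0.1). Single genes differed far more: from gene to gene the log2 ratio of the 3′ to the 5′ side of the midpoint ran from -1.27 to 1.33 in rpd3Δ and from -1.75 to 0.89 in WT.

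**Figure D2:**
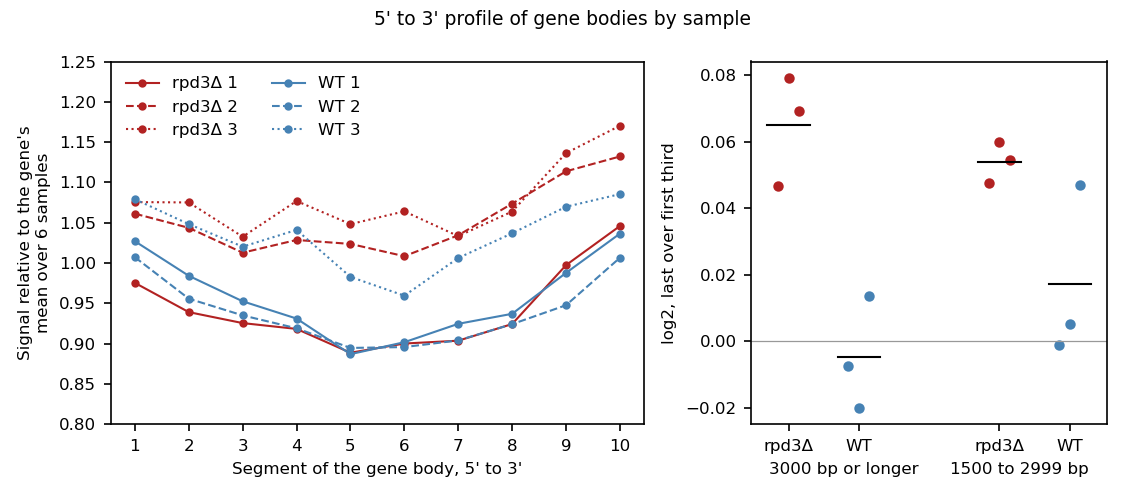
Left, signal of long gene bodies in 10 equal segments, 5′ to 3′, as the mean over 445 genes after division by each gene's mean over the 6 samples (y axis), 1 line per sample; right, log2 ratio of the last to the first of 3 equal parts of the body per sample (points) with group means (bars), for genes of 3000 bp or longer and for genes of 1500 to 2999 bp. The 3 rpd3Δ samples lie at 0.05 to 0.08 and the 3 WT samples at -0.02 to 0.01 in the long genes.

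At the level of single genes this balance did not pass a test. In a fit of the 5′ and the 3′ side of the midpoint of every body, 0 of the 445 members were called by edgeR's quasi-likelihood test (lowest adjusted p = 0.426); at an unadjusted p under 0.05, 22 had moved toward the 3′ side in rpd3Δ and 11 toward the 5′ side. Over all 2242 bodies of at least 1500 bp in this fit, 0.0892% were called with a higher 3′ share in rpd3Δ and 0.0% with a lower one. The median change was 0.06 on the log2 scale for the members and 0.04 for all bodies. The 3′ side was the higher one in 252 members in rpd3Δ and in 225 in WT. DNF3 was among those with the lowest adjusted p (0.426 by edgeR), with a log2 ratio of the 3′ to the 5′ side of -0.70 in rpd3Δ and -0.19 in WT.

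Between genotypes, 32 of the 445 bodies rose in rpd3Δ and 10 fell. The test was edgeR's quasi-likelihood test over 2244 bodies of at least 1500 bp, with p-values adjusted by Benjamini-Hochberg and a threshold of 0.05. That is 7.19% and 2.25% of the members, against 5.08% of all bodies called higher and 1.47% called lower. All bodies include the members, chromosome XII outside the rDNA and the zones near chromosome ends. Of the 1485 bodies of 1500 to 2999 bp in the same parts of the chromosomes as the members, 2.29% were called higher and 1.01% lower. A median long body held 412 counts per sample and a median body of 1500 to 2999 bp held 139, so these shares compare genes tested with unequal precision. The fold changes were small: the median over the members was 0.08 on the log2 scale, as over all bodies, and the range was -0.48 to 0.60. In 71 members every rpd3Δ sample exceeded every WT sample and in 34 every rpd3Δ sample lay below, that is 16.0% and 7.64% of the members, against 15.5% and 6.82% of all bodies. These last shares are near the background.

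The direction of the calls hung on the scaling, and their number on single samples. Of the 42 calls 76.2% were higher. With library sizes set on the bodies themselves the split was 27 higher and 37 lower, and with DESeq2 it was 16 and 25, against 3.12% higher and 2.94% lower over all bodies by DESeq2; both shift the median of the members to about 0 (-0.01 and 0.00). Without WT sample 1, 5 rose and 4 fell, without WT sample 2, 3 and 2, and without rpd3Δ sample 2, 7 and 4. Without rpd3Δ sample 3, 16 rose and 7 fell, without rpd3Δ sample 1, 51 and 7, and without WT sample 3, 56 and 9. With WT samples 1 and 2 pooled as 1 there were 7 and 4. DNF3 and ESC1 as higher and PDR5 and the retrotransposon gene YDR261W-B as lower passed whichever sample was left out.

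DNF3, which encodes an aminophospholipid flippase of internal membranes, changed most (YMR162C, chromosome XIII, 578951 to 583921, R64, minus strand). Its body had 10.9, 11.3 and 9.82 scaled counts per bin in the rpd3Δ samples and 6.98, 7.01 and 7.24 in the WT samples. The groups were far apart, with a log2 fold change of 0.60 (standard error 0.105, adjusted p = 3.63e-06 by edgeR). The rise was uneven along the gene. In the second segment of the body, signal was 21.6 ± 3.74 in rpd3Δ and 10.2 ± 0.793 in WT, while in the ninth segment it was 5.64 ± 0.982 in rpd3Δ and 5.60 ± 0.988 in WT (SD, n = 3 each). Relative to its surroundings DNF3 had 1.23 in rpd3Δ and 0.822 in WT.

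SLN1, the osmosensing histidine kinase (chromosome IX, 69791 to 73453), had 8.29, 9.25 and 10.8 scaled counts per bin in rpd3Δ and 6.24, 6.04 and 7.63 in WT (log2 fold change 0.51, standard error 0.121, adjusted p = 0.00151 by edgeR). TRK1, the potassium importer of the plasma membrane (chromosome X, 173599 to 177306), had 8.59, 9.11 and 11.5 in rpd3Δ and 6.69, 6.80 and 7.01 in WT (0.50). Both were separated between genotypes in every sample. Along TRK1 the rpd3Δ mean was above the WT mean in every segment but the seventh: the fourth had 14.6 ± 2.70 in rpd3Δ and 7.04 ± 0.63 in WT (log2 ratio 1.05), the seventh 4.88 ± 0.648 in rpd3Δ and 5.57 ± 1.04 in WT (-0.19), and the ninth 7.49 ± 2.47 in rpd3Δ and 5.41 ± 1.81 in WT (0.47). ESC1, whose protein anchors silenced chromatin at the nuclear periphery (chromosome XIII, 707133 to 712109), had 9.68, 10.3 and 11.1 in rpd3Δ and 7.44, 7.65 and 7.43 in WT (0.46, standard error 0.104, adjusted p = 0.000976 by edgeR). The surroundings of ESC1 were higher in rpd3Δ by 0.20 on the log2 scale, and with them as an offset its change was 0.26 and was not called (edgeR adjusted p = 0.0810).

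Of the other members with the largest rises, BOI2, a cell polarity protein gene on chromosome V, had 7.54, 9.52 and 9.32 scaled counts per bin in rpd3Δ and 6.50, 5.36 and 7.23 in WT. SPP41 and TBS1 had log2 fold changes of 0.46 and 0.44. MTC5, a subunit gene of a complex that regulates the TORC1 kinase, had 9.84, 9.99 and 9.90 in rpd3Δ and 6.62, 6.72 and 8.71 in WT. In MTC5 the WT samples spread more than the rpd3Δ samples, yet the groups did not overlap. PMD1, a regulator of sporulation genes, rose by 0.43, and SCC2, which encodes the loader of the cohesin ring, by 0.41. With the surroundings as an offset, BOI2 and SCC2 were not called, and SPP41, TBS1, MTC5 and PMD1 still were. Among the fits with a sample left out, PMD1 passed in 5, SPP41 in 4, BOI2, MTC5 and SCC2 in 3, and TBS1 in 2. Over all 32 risers the log2 fold change ran from 0.28 to 0.60, and in 29 of them the genotypes did not overlap.

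**Figure D3:**
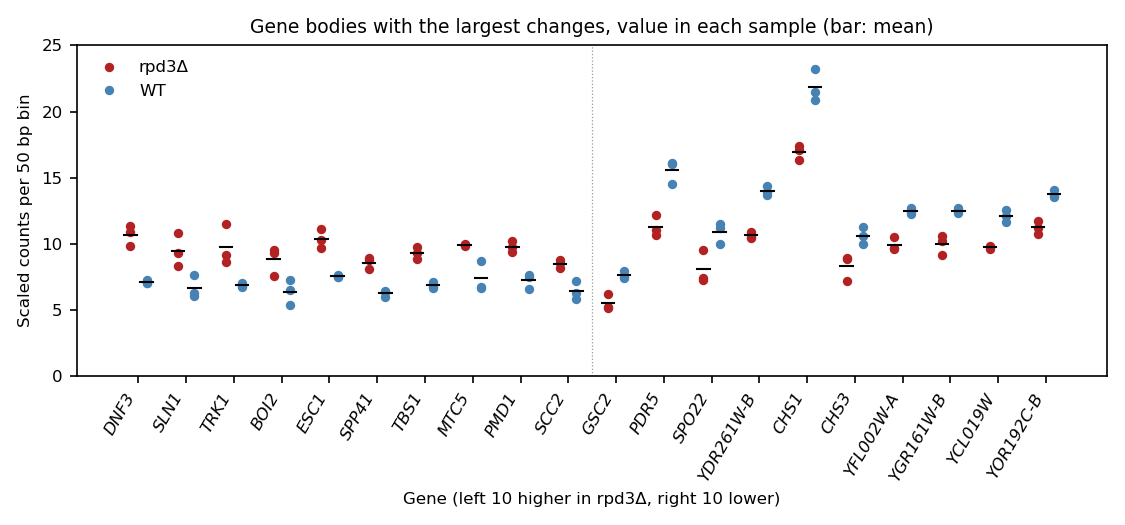
Scaled counts per 50 bp bin (y axis) of the bodies of the 10 members that rose and the 10 that fell most in rpd3Δ, 1 point per sample and a bar at the mean of 3 samples, rpd3Δ in red left of WT in blue. DNF3 has 9.82 to 11.3 in rpd3Δ and 6.98 to 7.24 in WT; CHS1 has 16.4 to 17.4 in rpd3Δ and 20.9 to 23.2 in WT.

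The bodies that fell were fewer and included cell wall enzymes and a drug pump. GSC2, the catalytic subunit of a glucan synthase (YGR032W, chromosome VII, 548264 to 553951), had 5.18, 5.08 and 6.19 scaled counts per bin in rpd3Δ and 7.47, 7.94 and 7.41 in WT (log2 fold change -0.48, standard error 0.109, adjusted p = 0.00100 by edgeR). PDR5, a multidrug exporter of the ABC family (YOR153W, chromosome XV, 619840 to 624375), had 11.003, 12.2 and 10.7 in rpd3Δ and 14.5, 16.1 and 16.0 in WT (-0.46, standard error 0.0962, adjusted p = 0.000203 by edgeR). CHS1, a chitin synthase that repairs the wall at cell separation (YNL192W, chromosome XIV, 276502 to 279897), had 17.1, 16.4 and 17.4 in rpd3Δ and 20.9, 23.2 and 21.5 in WT (-0.37, standard error 0.0975, adjusted p = 0.00653 by edgeR). In all of them the genotypes were apart in every sample. CHS3, the main chitin synthase of the cell wall and bud neck, had 7.16, 8.88 and 8.81 in rpd3Δ and 9.96, 10.6 and 11.2 in WT (-0.36, edgeR adjusted p = 0.0423), and it passed in none of the fits with a sample left out. GSC2 and PDR5 have close paralogs, FKS1 and PDR15, and how reads that match both were handled is not given in the sources used here, so reads in shared stretches may be split between copies.

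Along the body these genes differed in shape, by segment values that were not tested singly. PDR5 was lower in rpd3Δ in all 10 segments: the second segment had 8.24 ± 0.259 in rpd3Δ and 15.4 ± 1.06 in WT, and the last segment had 17.4 ± 0.753 in rpd3Δ and 21.8 ± 3.72 in WT (SD, n = 3 each). SPO22, a gene of meiotic chromosome pairing (YIL073C, chromosome IX, 222937 to 225954), differed at the 5′ end, where the first segment had 14.0 ± 3.44 in rpd3Δ and 24.4 ± 7.91 in WT and the sixth had 6.56 ± 1.60 in rpd3Δ and 6.47 ± 1.86 in WT. Over the whole SPO22 body the samples had 9.52, 7.38 and 7.24 in rpd3Δ and 11.5, 11.2 and 9.98 in WT (log2 fold change -0.43, standard error 0.124, adjusted p = 0.0137 by edgeR). This call was lost with 1000 bp left out at each end (-0.14, edgeR adjusted p = 0.679), with the bins in binding regions left out (-0.14, edgeR adjusted p = 0.646), with WT samples 1 and 2 pooled, and without WT sample 1, WT sample 2, rpd3Δ sample 2 or rpd3Δ sample 3. A binding region, that is, a stretch where the sum of the 6 samples reached 2 times its surroundings, covers 20% of the bins of SPO22 and 28.3% of those of CHS1, and none of GSC2, PDR5 or CHS3.

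**Figure D4:**
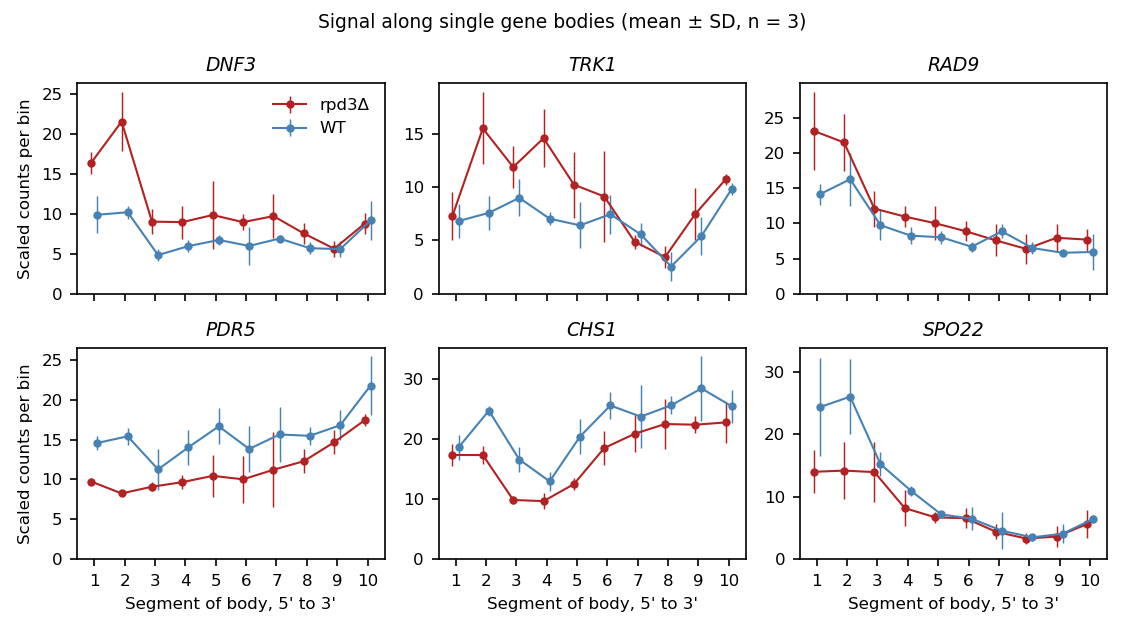
Scaled counts per bin (y axis, from 0) in 10 equal parts of the body, 5′ to 3′ (x axis, segments), for 3 genes that rose (DNF3, TRK1, RAD9) and 3 that fell (PDR5, CHS1, SPO22), chosen after their values were seen; points are means and bars SD over 3 samples, red for rpd3Δ and blue for WT. The genotypes are apart in the second segment of DNF3 (21.6 in rpd3Δ, 10.2 in WT) and in the first of SPO22 (14.0 in rpd3Δ, 24.4 in WT), and are close at the 3′ ends of both.

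The other 5 members that fell were all Ty2 elements. Ty elements are retrotransposons that make a Gag and a Pol protein from 1 long transcript, and the copies of a family are nearly identical, so their reads cannot be assigned to 1 copy with certainty and the copies are not independent. All 8 Ty2 genes are 5314 bp long. Relative to the genome average they had a median of 0.991 in rpd3Δ and 1.17 in WT. In each of the 8 every rpd3Δ sample lay below every WT sample, against 7.64% of all members and 6.82% of all bodies. YDR261W-B (chromosome IV, 981462 to 986775) had 10.5, 10.9 and 10.4 scaled counts per bin in rpd3Δ and 13.9, 13.7 and 14.3 in WT (log2 fold change -0.40, standard error 0.0932, adjusted p = 0.00141 by edgeR). YFL002W-A, YGR161W-B, YCL019W and YOR192C-B had log2 fold changes of -0.33, -0.33, -0.32 and -0.29. The median of the 8 was -0.30, and it lay between -0.38 and -0.29 in all 5 scalings tried, with 1 to 8 of them called. Copy number and binding per copy cannot be told apart here.

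The other Ty families are given beside these. The 27 Ty1 genes had a median of 1.34 times the average in rpd3Δ and 1.42 in WT, a median change of -0.07 on the log2 scale and 0 called by edgeR (range -0.16 to 0.04). The 2 Ty3 genes had high signal, 2.98 and 5.55 in rpd3Δ and 3.06 and 5.63 in WT, and none was called. Ty4 was low, and 1 of its 3 genes, YHL009W-B, rose (5.57, 5.54 and 4.90 scaled counts per bin in rpd3Δ and 4.32, 4.42 and 3.73 in WT, log2 fold change 0.36, edgeR adjusted p = 0.0481). The call of YHL009W-B was lost with DESeq2, with library sizes set on the bodies or on total signal outside the rDNA, and in every fit with a sample left out except the one without rpd3Δ sample 3. Differences between the families were not tested.

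The bodies that fell had a higher level in WT than most members, and the risers had a median near that of all members. Median WT signal relative to the genome average was 1.16 for those that fell, 0.659 for the risers and 0.656 for all members. In WT, all 32 risers had less signal than the genome average, as did 392 of the 445 members. In WT 0 of 32 risers lay above their surroundings, against 85 of the 445 members. In rpd3Δ 10 of 32 risers did so, against 106 of the 445 members. Of the 10 that fell, 8 were above the average in WT and 9 above their surroundings, against 6 above their surroundings in rpd3Δ. Of these 10, 5 are Ty2 copies, which are not independent. The exception was GSC2, with 0.528 times its surroundings in rpd3Δ and 0.660 in WT. WT values enter both the level and the fold change, so this order is a description and no test. Across the 445 members level in WT and fold change had a Spearman rho of -0.18, and across the 405 without retrotransposon genes one of -0.02; these are correlations across genes of the same 6 libraries, which are not independent replicates.

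**Figure D5:**
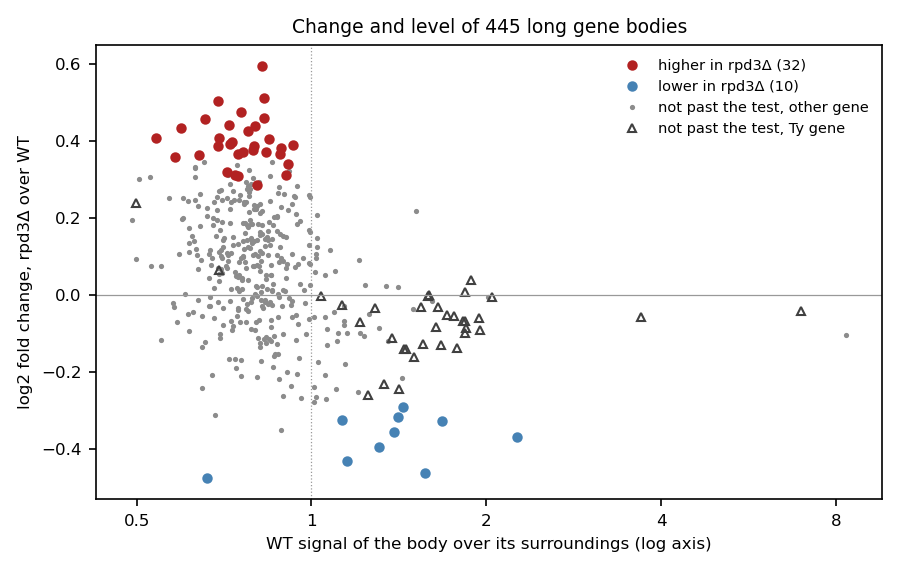
Log2 fold change of the body, rpd3Δ over WT (y axis), against the WT signal of the body divided by that of its surroundings (x axis, log scale), 1 point per member; red, 32 bodies higher in rpd3Δ, blue, 10 lower, grey dots and open triangles (retrotransposon genes) not past the test. All red points lie left of 1 and 9 of the 10 blue points right of it. Of all 445 members, 85 lie right of 1, and the WT samples enter both axes.

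The surroundings moved with the risers. They had a higher signal in rpd3Δ for 29 of the 32, with a median log2 ratio of 0.09, against a median of 0.01 over all members, and across the 445 members the change of the surroundings and that of the body had a Spearman rho of 0.41 (Pearson r 0.40), a description across genes of the same libraries. With the surroundings of each sample as an offset, 23 bodies rose and 15 fell, and 14 of the 32 risers and 9 of the 10 that fell were among them. Some risers lay close together. MLP2 and SLN1 are 1723 bp apart on chromosome IX, KAP123 and BOI2 8486 bp on chromosome V, DNF1 and BRR2 12070 bp on the same chromosome, and ESC1 and RRP5 13824 bp on chromosome XIII. By chromosome, the members' median log2 fold change was lowest on I (-0.08, 11 genes), III (-0.07, 13 genes) and VI (-0.06, 12 genes). It was highest on V (0.14, 22 genes). On V 5 of the 22 genes were called higher (22.7%), the neighbours KAP123, BOI2, DNF1 and BRR2 among them. On IV 8 of 62 genes were called higher (12.9%). These shares stand against 7.19% of all members and 5.08% of all bodies. By distance from the chromosome end, the median was 0.02 for the 105 genes at 30 to 100 kb, 0.08 for the 123 at 100 to 200 kb, 0.10 for the 142 at 200 to 400 kb and 0.05 for the 75 farther in. Differences between chromosomes or distances were not tested.

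The level of the bodies differed far more between genes than between genotypes. FIG2, an adhesin of the cell wall that mating pheromone induces (YCR089W, chromosome III, 267434 to 272263), stood far above the other members outside retrotransposons. FIG2 had 62.6, 69.7 and 65.1 scaled counts per bin in rpd3Δ and 69.2, 70.2 and 72.6 in WT. It had 7.86 times the signal of its surroundings in rpd3Δ and 8.34 times in WT, along its whole body, and binding regions covered 100% of it. The genotypes overlapped (log2 fold change -0.10, standard error 0.0617, adjusted p = 0.350 by edgeR), and it was called lower with DESeq2 (-0.18) and with library sizes set on the bodies (-0.18). FAS2, CHS1, FAS1 and PDR5 came next. FAS2 and FAS1 encode the subunits of fatty acid synthase. FAS2 had 19.5, 20.2 and 19.7 in rpd3Δ and 19.3, 19.6 and 20.8 in WT, and FAS1 13.9, 14.7 and 16.0 in rpd3Δ and 15.3, 14.3 and 15.5 in WT. In both the genotypes overlapped, with log2 fold changes of -0.01 for FAS2 and -0.02 for FAS1. Retrotransposon genes were left out of this order. The higher of the 2 Ty3 genes had 5.55 times the genome average in rpd3Δ and 5.63 in WT. FIG2 had 6.22 in rpd3Δ and 6.59 in WT.

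The lowest bodies were those of LTE1, a regulator of mitotic exit, PRP22 and PRP16, helicases of the spliceosome, NPR3, a subunit gene of a complex that restrains TORC1, and GEA1, an activator of Arf GTPases in the Golgi. LTE1 had 3.76, 4.10 and 3.73 scaled counts per bin in rpd3Δ and 4.06, 4.62 and 3.79 in WT, and PRP22 had 3.42, 4.04 and 4.26 in rpd3Δ and 4.50, 4.34 and 5.00 in WT. None of the 5 was called, with log2 fold changes of -0.24 to 0.08. DYN1, the heavy chain of dynein and the longest member, had 5.29, 6.12 and 6.36 in rpd3Δ and 5.18, 5.66 and 5.98 in WT, and TRA1, a scaffold of histone acetyltransferase complexes, 6.49, 7.73 and 6.91 in rpd3Δ and 6.69, 7.03 and 7.59 in WT. SIN3, the scaffold of the Rpd3 complexes, had 5.22, 6.23 and 6.46 in rpd3Δ and 6.04, 5.63 and 6.55 in WT. In each of the 3 the genotypes overlapped, with log2 fold changes of 0.08 for DYN1, -0.01 for TRA1 and -0.02 for SIN3.

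Few bodies held a sharp peak. Binding regions touched 22 of the 445 bodies; these 22 had a median of 1.37 times the average in rpd3Δ and 1.40 in WT, and a median log2 fold change of -0.05, against 0.08 for the other 423. After smoothing over 500 bp, the highest signal over a gene's own median was in APE2, an aminopeptidase gene (3.86 times, 534 bp after the start codon). Next came TRA1 (3.53 times, at 10664 bp) and ADR1, an activator of glucose-repressed genes (3.40 times, at 3440 bp). SPO22 (2.84 times, at 729 bp) and SMC3, a cohesin subunit gene (2.78 times, at 2974 bp), followed. In APE2, TRA1 and ADR1 this position is the outermost bin of the body. The smoothing there takes in bins beyond the body, and the maximum itself may lie outside it. Apart from SPO22, none of these bodies was called. ADR1 had 12.3, 11.96 and 10.8 scaled counts per bin in rpd3Δ and 8.87, 10.2 and 9.82 in WT, with no overlap (log2 fold change 0.28, edgeR adjusted p = 0.102).

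By function, the calls were spread over most of the gene lists. The share of all bodies is given beside each list. Of all 445 members, 7.19% were called higher and 2.25% lower. Of 27 members that replicate, repair or hold together chromosomes, 4 rose and 0 fell, that is 14.8% higher against 5.08% of all bodies, with a median log2 fold change of 0.18; their median was 0.11 to 0.19 over the 5 scalings. These 4 were the cohesin loader gene SCC2, DNA2, a nuclease and helicase of Okazaki fragment processing, the checkpoint adaptor gene RAD9 and the checkpoint kinase gene MEC1. RAD9 had 13.2, 11.5 and 10.6 scaled counts per bin in rpd3Δ and 9.90, 8.93 and 8.57 in WT (log2 fold change 0.37, edgeR adjusted p = 0.0186), and MEC1 had 6.90, 7.98 and 7.47 in rpd3Δ and 5.65, 5.61 and 6.15 in WT (0.36, edgeR adjusted p = 0.0102). Neither gene's samples overlapped between genotypes. With the surroundings as an offset MEC1 and DNA2 were still called, and RAD9 and SCC2 were not. With DESeq2 2 of the 27 were called, DNA2 (adjusted p = 0.0667) and RAD9 (adjusted p = 0.115) not among them, and RAD9 had 0.21 with 1000 bp left out at each end (edgeR adjusted p = 0.422). Of 18 members of the nuclear pore and nuclear transport, 3 rose, that is 16.7% against 5.08% of all bodies, with a median of 0.15. They were the importin genes KAP123 and KAP120, and MLP2 of the pore basket. None of the 18 passed in DESeq2. With the surroundings as an offset 1 of the 18 was called, and KAP123, KAP120 and MLP2 were not. Of 32 transcription and chromatin genes, 2 rose, that is 6.25% against 5.08% of all bodies and 7.19% of all members. RPA190, the largest subunit of RNA polymerase I, had 9.45, 10.3 and 11.4 in rpd3Δ and 7.34, 7.76 and 8.58 in WT. SWR1, the ATPase that installs histone H2A.Z, had 10.4, 10.97 and 10.1 in rpd3Δ and 7.66, 8.24 and 8.15 in WT. With the surroundings as an offset RPA190 was still called and SWR1 was not. The median of the 32 was 0.14, and with DESeq2 or library sizes set on the bodies 2 of them were also called lower.

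Membrane transporters were mixed. Of 22, 5 rose (22.7%) and 1 fell (4.55%), against 5.08% and 1.47% of all bodies, with a median of 0.08. The risers were DNF3, TRK1, the copper pump gene CCC2, the flippase gene DNF1 and the calcium channel gene CCH1, and PDR5 fell. With the surroundings as an offset, or with total signal as the scale, DNF3, TRK1, DNF1 and PDR5 were still called. CCC2 and CCH1 were called in neither, and CCC2 was not called with DESeq2. The median of the 22 was 0.01 with both DESeq2 and library sizes set on the bodies. Of 26 genes of ribosome assembly, translation and RNA processing, 3 rose, that is 11.5% against 5.08% of all bodies. They were RRP5 and UTP10, which act in early pre-rRNA processing, and BRR2, a spliceosome helicase. With the surroundings as an offset UTP10 was still called, and RRP5 and BRR2 were not. RRP5 had 12.4, 12.5 and 12.7 scaled counts per bin in rpd3Δ and 10.2, 8.51 and 9.98 in WT (log2 fold change 0.39, edgeR adjusted p = 0.00306). RRP5 was the 1 gene of the list called with DESeq2 and with total signal as the scale; UTP10 had a DESeq2 adjusted p = 0.0637 and BRR2 one of 0.0550. BOI2 and the nuclear migration gene NUM1 rose among 21 genes of the cytoskeleton, polarity and bud neck. That is 9.52% against 5.08% of all bodies and 7.19% of all members. The samples of NUM1 overlapped (7.63, 9.04 and 8.53 in rpd3Δ, 6.77, 6.15 and 7.81 in WT). NUM1 was not called with DESeq2 or with total signal as the scale. With the surroundings as an offset 0 of the 21 were called. The median of these 21 was 0.06, and it was -0.02 with both DESeq2 and library sizes set on the bodies. Among 11 ubiquitin and proteolysis genes, the N-end rule ligase gene UBR1 rose. That is 9.09% against 5.08% of all bodies and 7.19% of all members. The samples of UBR1 overlapped (8.47, 11.1 and 10.9 in rpd3Δ, 8.04, 7.63 and 8.91 in WT). UBR1 was not called with DESeq2, with total signal as the scale or with the surroundings as an offset.

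The 22 metabolic enzymes were the 1 list with falls and no rises by edgeR. GSC2, CHS1 and CHS3 fell, that is 13.6% against 1.47% of all bodies, and the median was -0.02. With the surroundings as an offset 1 member of the list rose. The 3 that fell make polysaccharides of the cell wall. FAS1, FAS2 and the other members of the list were not called by edgeR. None of 19 signalling genes and none of 18 vesicle traffic genes was called by edgeR; at an unadjusted p under 0.05, 2 and 3 of them were higher and 0 lower in either list, and DESeq2 called 0 in both; with library sizes set on the bodies, 1 vesicle gene was called lower. The signalling genes with the most signal were GCN2, the kinase that senses uncharged tRNA (9.49, 10.9 and 10.2 in rpd3Δ and 10.01, 9.18 and 9.74 in WT), and RGA1, a GTPase activator for Cdc42 (8.32, 8.21 and 10.8 in rpd3Δ and 8.23, 8.25 and 9.13 in WT). Among the vesicle genes they were CHC1, clathrin heavy chain (7.39, 9.64 and 9.73 in rpd3Δ and 8.24, 7.97 and 10.1 in WT), and COP1 of the COPI coat. In all of these the genotypes overlapped. Of 23 genes strongly expressed in glucose, which overlap the other lists, only KAP123 was called, that is 4.35% against 5.08% of all bodies. The median of the 23 was 0.02. With DESeq2 0 were higher and 1 lower (median -0.05; KAP123 adjusted p = 0.0637), and with library sizes set on the bodies 1 was higher and 2 lower (median -0.06). These had a median signal of 0.886 times the average in rpd3Δ and 0.818 in WT, against medians of 0.720 in rpd3Δ and 0.656 in WT for all members. No list was tested as a set.

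Median values were close on both sides of the length threshold. The 32 genes of 3000 to 3099 bp had a median relative signal of 0.725 in rpd3Δ and 0.662 in WT and changed by a median of 0.09 on the log2 scale. The 36 genes just too short, of 2900 to 2999 bp, had 0.718 in rpd3Δ, 0.684 in WT and 0.13. Of the 32, 3 were called higher (9.4%), and of the 36, 5 were (13.9%), with 1 called lower in each. All bodies of 1500 to 2999 bp in the same positions had 2.29% called higher, all members 7.19% and all bodies 5.08%. The 15 genes of 7000 bp and more had 0.693 in rpd3Δ and 0.637 in WT. Their log2 fold change was positive in 14 of 15 (median 0.10), against 279 of all 445 members (median 0.08). The sign depends on the scaling: with library sizes set on the bodies 214 of the 445 were positive. Length and fold change had a Spearman rho of 0.01 across the 445 members and of 0.13 across the 405 without retrotransposon genes. The strands were alike, with 16 risers on each, and 7 genes on the plus and 3 on the minus strand that fell.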

How the data were processed

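Anti-FLAG ChIP-seq of 3 rpd3Δ and 3 WT samples was analysed from deposited tables of 50 bp bins. The tools named in the submitters' processing notes are Bowtie2, SAMtools and bedtools, with the R64 build; their versions, any read filter and the handling of reads with more than 1 match are not stated there. The deposited counts are whole numbers per bin, not normalized; a read that crosses a bin border counts in each bin. The deposited fraction of each bin covered was used only as a check: the median coverage of long bodies was 95.6% to 99.4% per sample.

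Genes came from a RefSeq table of R64, with strand read from locus tags. Counts of bins wholly inside each body were summed. Counts per bin were scaled by dividing through an effective library size set by TMM over 1193 bins of 10 kb outside the rDNA (chromosome XII, 450001 to 491000), relative to its mean. Local background is the mean of the middle part of the bins within 25 kb. Binding regions (895) were called on the sum of all samples smoothed over 500 bp, at 2 times the surrounding 20 kb median over at least 200 bp. edgeR 4.0.16 (glmQLFit, glmQLFTest, R 4.3.3) tested 2244 bodies with a mean of at least 10 counts, with Benjamini-Hochberg adjustment at 0.05; the 5′ and 3′ sides were fitted with sample as a covariate. DESeq2 1.42.0 was an alternative. Single values per sample had two-sided exact permutation tests. The tests were run on simulated counts first. Python 3.11.15 made the tables. WT samples 1 and 2 were close, but their rDNA shares differed, so they were kept as 2 samples.

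The members and gene lists were chosen with earlier results of these data known. Named genes follow a rule. It takes up to 10 rising and 10 falling members with the largest change and no overlap. It adds the 5 highest and 5 lowest bodies outside retrotransposons and up to 4 called members of each list (or the 2 highest). Last come the 5 with the highest smoothed signal over their own median, and DYN1, TRA1, FAS1, FAS2 and SIN3. MDN1, YEF3 and PCA1 were also planned but do not meet the rule of position. Other genes were named after their values were seen.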

Additional observations from a re-analysis of the deposited data

How the results depend on the processing

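The number of called bodies moved most. Against 32 higher and 10 lower, leaving out 1 sample gave 3 to 56 higher and 2 to 9 lower. DESeq2 gave 16 and 25, TMM over the bodies 27 and 37, total signal 20 and 5, WT samples 1 and 2 pooled 7 and 4, the whole coding sequence 48 and 19, and 1000 bp left out at each end 14 and 7, where fewer genes were tested; otherwise the cause was not tested. No filter (32 and 10), bins in binding regions left out (27 and 9) and local background as an offset (23 and 15) stayed within 1.5 times. Of the values per sample, the difference in share of signal, in body to promoter ratio and in 3′ to 5′ ratio kept its sign in every alternative. Their p was not below 0.1 in any. Groups of 3 against 3 or 3 against 2 samples cannot give less, so these p-values are no check. In the test of 5′ against 3′ sides 0 members were called in every alternative. Replicate numbers were shared but correlations of deviations were -0.03, 0.02 and 0.06, so they do not pair samples. The replicate block gave 37 higher and 11 lower, and 0 calls for sides. The mean differences of the values per sample (0.04, 0.15 and 0.07) cannot change with balanced pairs, so they are no check.

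For single named genes, 608 of 831 values kept direction and call, 176 lost the call, 3 gained it, and 44 of genes not called in either fit changed sign. These log2 fold changes were, with 1000 bp left out at each end GEA1 -0.066, PRP16 0.13, TRA1 0.019; with DESeq2 APE2 -0.053, CHC1 -0.047; with TMM over the bodies GEA1 -0.0033, APE2 -0.061, CHC1 -0.054, DYN1 -0.0061. They were, with WT samples 1 and 2 pooled CHC1 -0.019; without binding regions FAS2 0.0065, TRA1 0.0055; with local background NPR3 0.0034, PRP16 0.057, TRA1 0.21, GCN2 -0.080, CHC1 -0.079, SIN3 0.095. They were, with total signal FAS2 0.0071, TRA1 0.0029; over the whole coding sequence FAS2 0.012, PRP16 0.024, APE2 -0.029, SIN3 0.033. With 1 sample left out, the ranges of the genes that changed sign were NPR3 -0.085 to 0.014, APE2 -0.015 to 0.077, CHC1 -0.039 to 0.15, FAS2 -0.027 to 0.024, FAS1 -0.064 to 0.031, TRA1 -0.083 to 0.048, SIN3 -0.078 to 0.070, PRP16 -0.12 to 0.062, RGA1 -0.039 to 0.16.

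Depth limits single genes: a body held 133 counts or more per sample, and counts in neighbouring bins share reads.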
